A study of Homo sapiens with 24 samples.

Results

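The comparison of a BET inhibitor with a SYK inhibitor in DG-75 cells rested on 6 of the 24 arrays of the series, 3 of DG-75 cells exposed to the bivalent BET inhibitor AZD5153 (AZD, 0.01 µM) and 3 of DG-75 cells exposed to the SYK inhibitor entospletinib (Ento, 1 µM), each for 72 h. The members were taken from the labels alone, as all arrays of those treatment groups, and every one of the 25575 measured rows of the table entered the fit. The DG-75 line came from a Burkitt lymphoma and the second line, SU-DHL-4, from a diffuse large B-cell lymphoma, and the labels name no genetic change made to either. Both lines were also exposed to the solvent alone (DMSO control) and to both agents at the same doses (Ento+AZD), which gives 8 groups of 3 arrays on the Clariom D human platform. The submitters call the 3 arrays of a group biological triplicates. Each line is 1 culture model of its lymphoma type, and the 2 agents were given at different doses, so the contrast sets these 2 exposures side by side and not the agents at matched doses.

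BET proteins bind acetylated lysines on histones through their bromodomains and recruit the elongation kinase P-TEFb, and BET inhibitors displace them from chromatin. SYK is the tyrosine kinase that relays signals from the B-cell receptor, after SRC family kinases have phosphorylated the receptor chains. An inhibitor of the first kind therefore acts at the chromatin, and one of the second kind at the membrane end of a signalling pathway on which many mature B-cell lymphomas depend.

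Levels are log2 signals after robust multi-array averaging (RMA), and a difference of 1 on this scale is a 2-fold difference. A gene was called when limma gave an adjusted p under 0.05 and a difference of more than 1. AZD gave lower levels than Ento far more often than higher levels: 84 rows were called lower under AZD (0.328% of all rows) and 4 were called higher (0.0156%). A gene with several rows was read from its row with the highest mean, and by that row 83 genes were called lower, since FAM153B was called through another of its rows. Without the fold minimum, 133 rows (0.52%) were lower and 11 (0.043%) were higher at the same adjusted p, and 3617 rows had an unadjusted p under 0.05. The median difference of all rows was -0.05, and 59% of them were below 0. Scaling the arrays again by quantile normalization left 42 lower and 7 higher calls (14.3% higher in place of 4.55%) and a median over all rows of 0.02, and subtracting array medians left 44 lower and 4 higher calls. In 15.2% of all rows the 3 AZD arrays lay below the 3 Ento arrays, and in 5.2% they lay above, so groups that do not overlap are common in this table.

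The number of calls hung on single arrays. It was 1 without Ento replicate 1, 1 without Ento replicate 2, 1 without AZD replicate 1 and 3 without AZD replicate 3, but 56 without AZD replicate 2 and 310 without Ento replicate 3. Leaving out arrays that the contrast itself does not use gave 54, 46 and 51 calls without DMSO replicates 1, 2 and 3, and 44, 83 and 85 without Ento+AZD replicates 1, 2 and 3. All 88 called rows kept their sign in each of these 12 fits, but a called row was called again in a median of 5.5 of the 12, and in 1.5 of the 6 that leave out an AZD or Ento array. HVCN1 and ASS1 were each called in 9 of the 12 and in 3 of those 6, LCK, IFIH1 and ORC1 in 8 of the 12, IL7R in 6, MYB in 5, MND1 and TP53INP1 in 3, POLE2 in 2, and CDC45 and FANCD2 in 1. A fit of the 6 arrays alone called no row by limma, with 3290 rows at an unadjusted p under 0.05, and gave 32 calls once the replicate number was left out of it.

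HVCN1, which encodes a voltage-gated proton channel of B cells and phagocytes, had levels of 5.23, 5.12 and 5.56 in the 3 AZD arrays and 6.61, 6.66 and 6.68 in the 3 Ento arrays. The 3 Ento arrays were almost equal, and every AZD array lay more than 1 unit below them. The difference was -1.35 ± 0.14 (SE, 3 arrays a group, adjusted p = 0.0117). The DMSO arrays, at 6.64, 6.36 and 6.56, stood with the Ento arrays, and the Ento+AZD arrays, at 5.11, 5.06 and 5.44, stood with the AZD arrays. The other 9 measured genes of its list, which holds the subunits of the phagocyte NADPH oxidase and related genes, were not called.

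ASS1, the enzyme that joins citrulline and aspartate in arginine synthesis, measured 8.40, 9.03 and 8.77 under AZD and 10.26, 10.61 and 9.82 under Ento. The groups did not overlap, and replicate 2 was the highest in both. The difference was -1.49 ± 0.18 (adjusted p = 0.0185).

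CLEC2D, the ligand of the natural killer cell receptor CD161, measured 9.07, 9.63 and 9.38 under AZD and 10.60, 10.77 and 10.57 under Ento, a difference of -1.29 ± 0.14 (adjusted p = 0.0129). Its DMSO arrays, at 10.05, 10.31 and 9.98, lay between the agents and overlapped with neither. TEAD4, a DNA-binding partner of YAP and TAZ, measured 5.97, 6.11 and 5.73 under AZD and 7.12, 7.06 and 7.06 under Ento, a difference of -1.14 ± 0.13 (adjusted p = 0.0136).

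The naming rule gave 7 further genes that were lower under AZD. MFAP4, an extracellular matrix protein, differed by -1.53, ALDH1L2, the mitochondrial 10-formyltetrahydrofolate dehydrogenase, by -1.53, and KIAA0040 by -1.48. RERG, a RAS-related GTPase, differed by -1.33 and the pseudogene FAR2P2 by -1.27. SLC23A1, a vitamin C transporter, differed by -1.12 and PALM2AKAP2 by -1.11. In all 7 the 3 AZD arrays lay below the 3 Ento arrays, and the adjusted p ran from 0.0147 to 0.0211. FAR2P2 shares sequence with FAR2, and the probes may not separate the 2, so its value is uncertain.

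**Figure D1:**
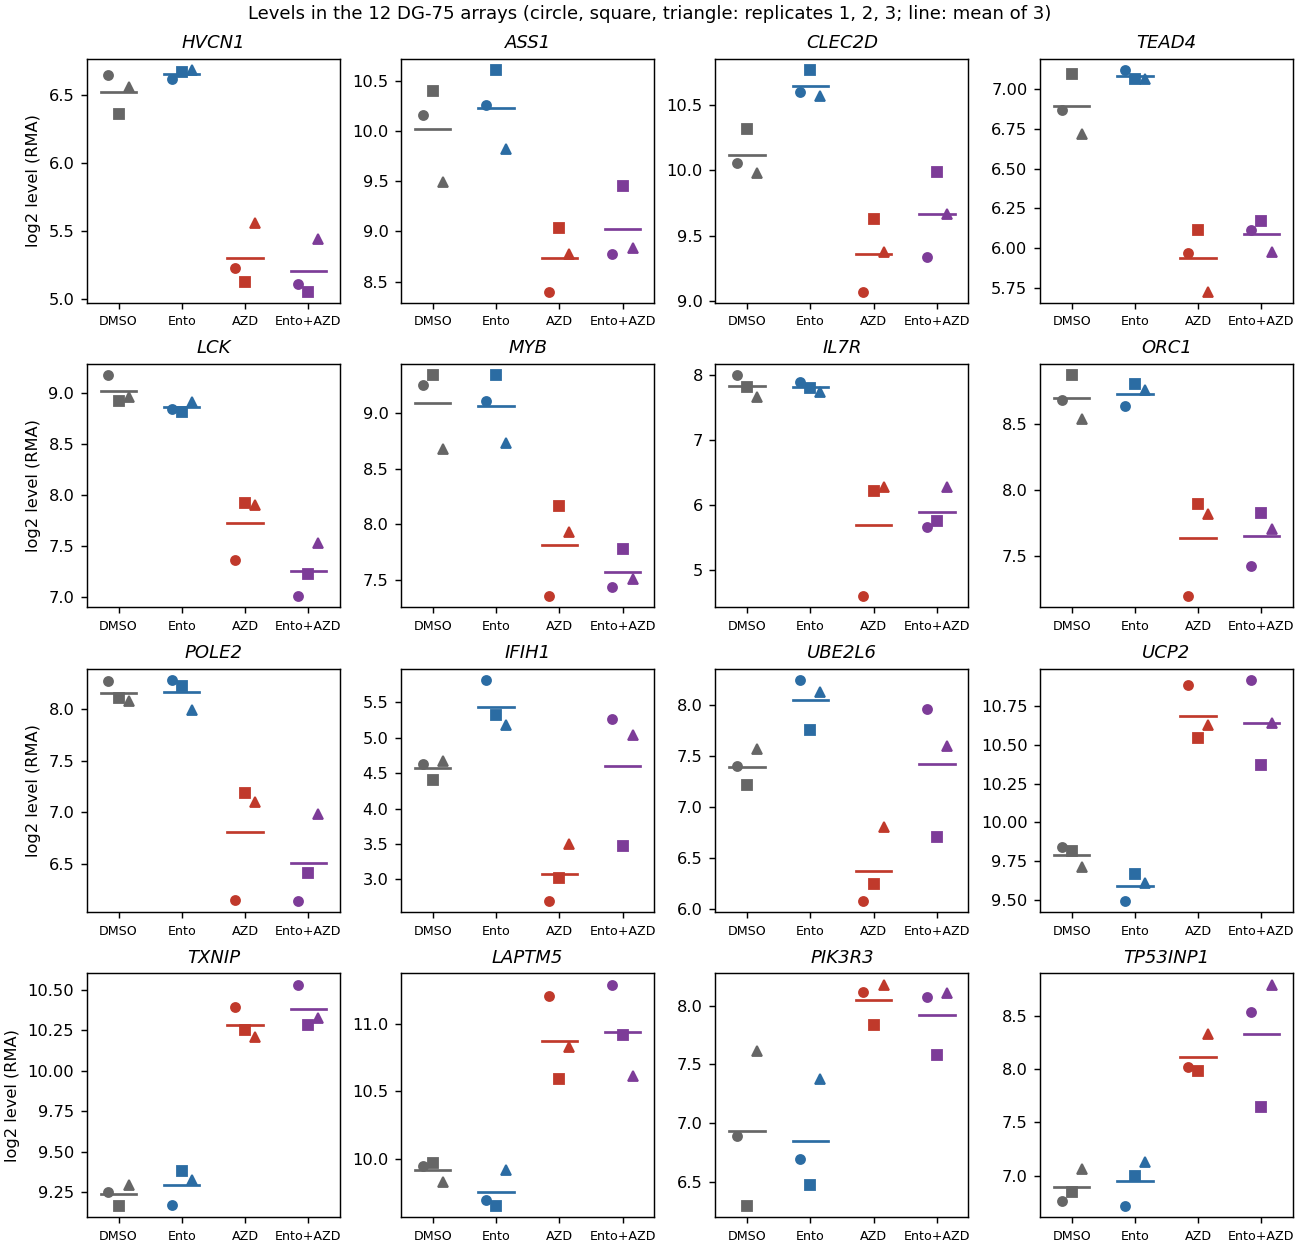
Log2 levels of 16 genes in the 12 DG-75 arrays, by treatment, with circles, squares and triangles for replicates 1, 2 and 3 and a line at the mean of 3. In most panels the DMSO arrays sit with the Ento arrays and the Ento+AZD arrays with the AZD arrays, while in CLEC2D, IFIH1, UBE2L6 and UCP2 the DMSO arrays lie between the agents and overlap with neither, and in IFIH1 and UBE2L6 the Ento+AZD arrays spread from the level of one agent to that of the other; the vertical axes differ between panels and do not start at 0.

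LCK, a tyrosine kinase of the SRC family, was called lower under AZD. It is best known from T cells and is also made by some B-cell lymphomas. It measured 7.36, 7.92 and 7.90 under AZD and 8.85, 8.81 and 8.91 under Ento, a difference of -1.13 ± 0.17 (adjusted p = 0.0295). The groups did not overlap. A list of 11 SRC family kinases and their regulators had a median difference of -0.04. The SRC family kinases of resting B cells did not pass: LYN differed by 0.18 (adjusted p = 0.546), BLK by -0.11 (0.791) and FYN by -0.19 (0.629).

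SYK itself was not called between the agents. Its levels were 8.87, 8.73 and 8.91 under AZD and 8.85, 8.96 and 8.60 under Ento, a difference of 0.03 ± 0.14 (adjusted p = 0.953). None of the 34 measured genes for SYK and proximal B-cell receptor signalling was called, and their median difference was 0.06. The same was true of 35 early genes that follow receptor signalling (median 0.02). Among these EGR1, an immediate early transcription factor, measured 6.55, 6.84 and 6.50 under AZD and 5.28, 5.91 and 5.23 under Ento, without overlap, and its difference of 1.15 missed the threshold (adjusted p = 0.065).

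The BET family and its elongation partners were not called either, with a median of 0.09 over 15 genes. BRD2 differed by 0.19 ± 0.12 (adjusted p = 0.539) and BRD3 by 0.09 ± 0.15 (0.859). HEXIM1, an inhibitor of P-TEFb whose transcript is widely used as a marker of BET inhibitor exposure, measured 8.10, 7.63 and 7.83 under AZD and 7.07, 7.19 and 7.24 under Ento. Every AZD array was above every Ento array, and the difference of 0.68 ± 0.17 did not pass (adjusted p = 0.0895). MYC, the oncogene that Burkitt lymphoma cells carry next to an immunoglobulin enhancer, measured 9.80, 9.78 and 9.67 under AZD and 10.02, 10.12 and 9.89 under Ento. The difference was -0.26 ± 0.12 (adjusted p = 0.368). Of 38 measured genes of the MYC network and MYC-linked growth, none was called, 34 were below 0 and the median was -0.28. MXD4, which competes with MYC for its partner MAX, was higher under AZD by 0.85 (adjusted p = 0.0361), short of the fold minimum.

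MYB, a transcription factor of progenitor cells and of the germinal centre, was called lower under AZD. It measured 7.35, 8.16 and 7.93 under AZD and 9.11, 9.34 and 8.73 under Ento, a difference of -1.25 ± 0.19 (adjusted p = 0.0295). It was the called member of a list of 21 MYB and E2F family genes, beside 0.328% of all rows called lower. Of the 21, 20 were below 0 against 59% of all rows, and the median was -0.48 against -0.05. E2F8, a repressor of the E2F family, differed by -1.19 ± 0.30 and missed the threshold (adjusted p = 0.0933).

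The list of DNA replication genes lay below 0, mostly by less than 2-fold. All 52 measured genes of replication origins and forks were below 0, 46 had AZD arrays wholly below the Ento arrays against 15.2% of all rows, and the median was -0.71 against -0.05 for all rows. Of the 52, 3 were called lower, beside 0.328% of all rows, and 6 more passed the adjusted p alone. ORC1, the largest subunit of the origin recognition complex, measured 7.20, 7.89 and 7.82 under AZD and 8.63, 8.80 and 8.76 under Ento, a difference of -1.09 ± 0.16 (adjusted p = 0.0223). POLE2, an accessory subunit of DNA polymerase epsilon, differed by -1.35 ± 0.25 (adjusted p = 0.0484) and CDC45, which activates the MCM helicase, by -1.03 ± 0.19 (adjusted p = 0.0484).

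In all 3 genes the lowest of the AZD arrays was replicate 1. The 6 genes that passed the adjusted p alone were the helicase subunits MCM2 (-0.83), MCM5 (-0.80) and MCM7 (-0.79), the clamp loader subunits RFC2 (-0.87) and RFC4 (-0.74), and GINS1 (-0.93). The median level of the 52 genes was 7.19, 7.83 and 7.79 in the AZD arrays, 8.52, 8.42 and 8.18 in the Ento arrays and 8.41, 8.31 and 8.38 in the DMSO arrays. AZD replicate 1 was thus well below its companions, and all 3 AZD arrays lay below all Ento and DMSO arrays.

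Mitotic genes followed the same pattern with no call. All 56 measured genes of the mitotic spindle, kinetochore and centrosome were below 0, 52 had AZD arrays wholly below the Ento arrays against 15.2% of all rows, and the median was -0.67. The kinesin KIF14 (-0.92), the kinases NEK2 (-0.82) and AURKA (-0.74) and the centriole protein CEP152 (-0.82) passed the adjusted p but not the fold minimum. Among 22 cyclins, CDK inhibitors and CDC25 phosphatases none was called, 19 were below 0 and the median was -0.47. Of 70 replication-dependent histone genes none was called and the median was -0.28. In bulk samples such as these, fewer cycling cells and less of these transcripts in each cell cannot be told apart.

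**Figure D2:**
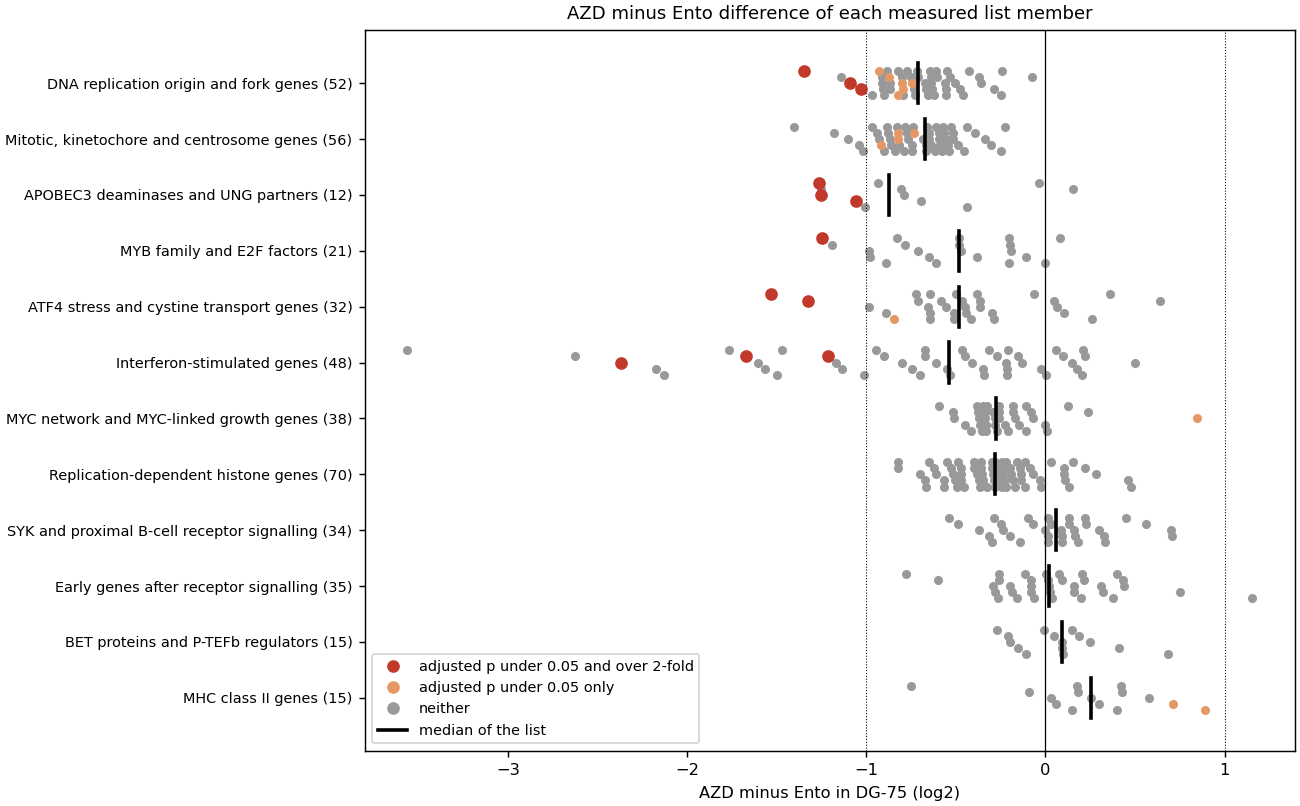
AZD minus Ento in DG-75 (log2, horizontal axis) for every measured member of 12 gene lists, each with its number of members; red points were called, orange points passed adjusted p only, and black bars are list medians. The replication and mitotic lists lie wholly left of 0 with medians of -0.71 and -0.67, and the lists for the B-cell receptor, the early genes and the BET family centre near 0.

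Of the other genes called lower, 3 that act in repair or recombination were singled out after their values were seen and stand for no list. FANCD2, the central protein of the Fanconi anaemia repair pathway, differed by -1.09 (adjusted p = 0.0499), XRCC2, a homologous recombination protein, by -1.14 (0.0277) and the meiotic recombination factor MND1 by -1.32 (0.0394). A list of APOBEC3 deaminases and partners of the uracil glycosylase UNG had 3 called members of 12, FAM72B (-1.25), FAM72C (-1.06) and FAM72D (-1.27), beside 0.328% of all rows called lower. In 10 of the 12 the AZD arrays lay wholly below the Ento arrays, against 15.2% of all rows, and the median was -0.87 against -0.05. The FAM72 copies are near identical and the probes may not separate them, so these 3 values are not independent and the copy that changed is uncertain. APOBEC3C differed by -1.01 (adjusted p = 0.070) and UNG by -0.81 (0.199).

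Promoter letters are shown for 3 of these called genes because replication and repair genes are textbook targets of E2F factors, whose sites are often written TTTCCCGC or TTTGGCGC. Each RefSeq promoter window ran from 250 bases before to 50 bases after a gene start (GRCh38.p14). A gene counted if any of its windows held a match, and a gene with several windows had more room for one. One of these words, on either strand, stood in the windows of 20 of the 45 replication list genes with a window (44.4%). The counts were 4 of 46 mitotic genes (8.7%) and 6 of 60 matched genes called lower (10%), against 2.75% of 27305 genes with a window. The palindrome CACGTG, an E-box that MYC and MAX can bind, stood in the windows of 11 of the 60 genes called lower (18.3%), 9 of the 45 replication genes (20%) and 4 of the 46 mitotic genes (8.7%), against 8.77% of all. ORC1 and CDC45 had windows in which none of these words stood. The stretches run 5′ to 3′ on the gene's own strand, with the match in capitals.

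POLE2, chr14:49688200-49688279, minus strand: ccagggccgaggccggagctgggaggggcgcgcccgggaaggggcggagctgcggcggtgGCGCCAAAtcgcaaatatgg
FANCD2, chr3:10026375-10026451, plus strand: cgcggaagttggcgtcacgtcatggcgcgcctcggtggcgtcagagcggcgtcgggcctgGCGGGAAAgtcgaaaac
MND1, chr4:153344594-153344676, plus strand: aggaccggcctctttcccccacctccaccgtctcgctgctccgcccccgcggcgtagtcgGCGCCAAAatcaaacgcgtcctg

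The matches of POLE2 and FANCD2 lay across the gene start, at -5 and -2, and that of MND1 at -34. In a second window of MND1, with another gene start, a match lay at 6. All 3 genes were called lower under AZD. The letters describe the windows and do not show that a factor was bound.

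Among 48 measured interferon-stimulated genes 3 were called lower under AZD, beside 0.328% of all rows, and the spread between arrays was large. Of the 48, 39 were below 0 against 59% of all rows and 21 had AZD arrays wholly below the Ento arrays against 15.2%, and the median was -0.54. IFIH1 (MDA5), a cytosolic sensor of double-stranded RNA, measured 2.69, 3.02 and 3.50 under AZD and 5.82, 5.32 and 5.18 under Ento. All AZD arrays were below all Ento arrays, and the difference of -2.37 ± 0.34 (adjusted p = 0.0234) was the lowest of all called rows. The AZD values lay well below the medians of those arrays, 5.01 to 5.05, so the size of this difference rests on weak signals. UBE2L6, the conjugating enzyme for the ubiquitin-like protein ISG15, measured 6.07, 6.24 and 6.80 under AZD and 8.25, 7.76 and 8.13 under Ento, a difference of -1.67 ± 0.23 (adjusted p = 0.0223). IFITM1, a membrane protein that restricts virus entry, differed by -1.21 ± 0.20 (adjusted p = 0.0308).

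The interferon genes also varied inside the treatment groups. IFI44L, the list member with the largest difference, measured 2.98, 3.75 and 4.52 under AZD, 8.73, 6.04 and 7.16 under Ento, 3.04, 2.36 and 6.83 in DMSO and 7.94, 4.01 and 8.50 under Ento+AZD. Its difference of -3.56 was not called (adjusted p = 0.099). The median of the 48 genes was 4.83, 4.85 and 5.21 under AZD, 5.93, 5.23 and 5.73 under Ento, 4.99, 4.86 and 5.85 in DMSO and 6.11, 5.01 and 5.83 under Ento+AZD. One untreated array, DMSO replicate 3, thus had the level of the Ento arrays, and replicate 2 was the lowest of its group in the DMSO, Ento and Ento+AZD groups. The part of this spread in the 3 calls was not tested.

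**Figure D3:**
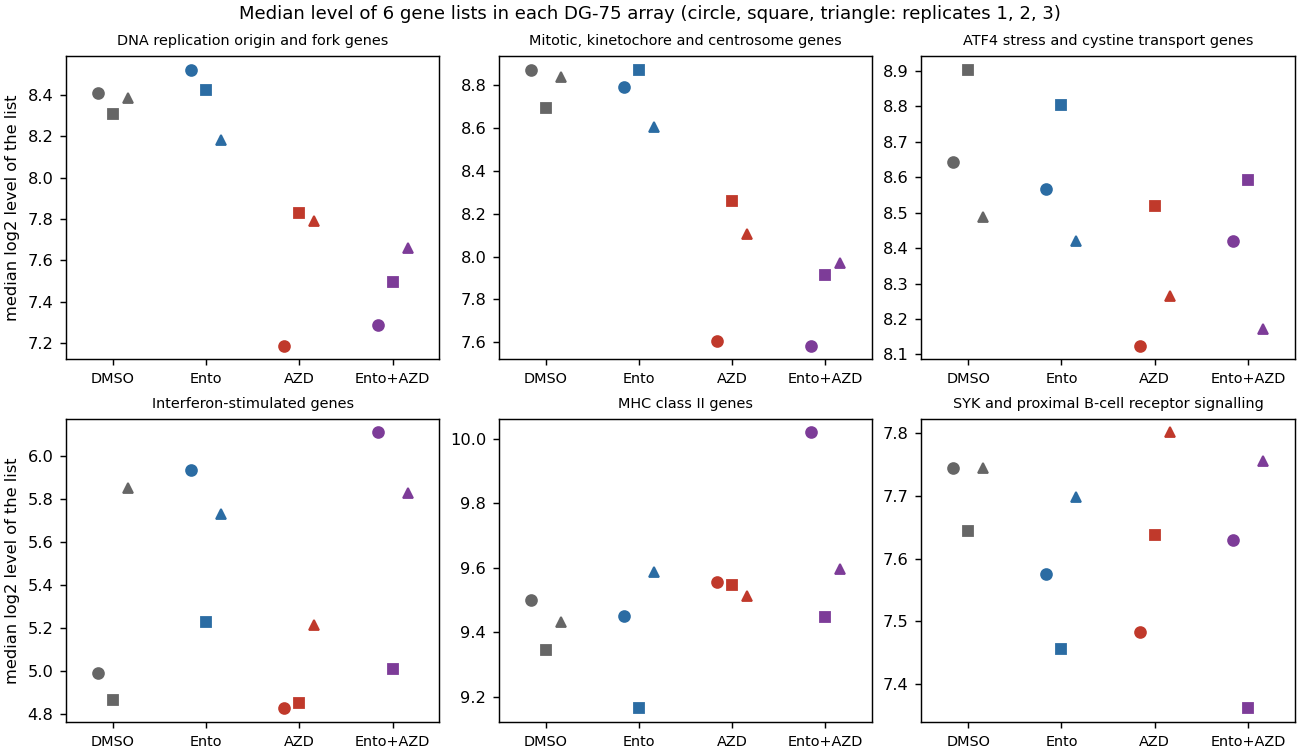
Median log2 level of 6 gene lists in each of the 12 DG-75 arrays, by treatment, with circles, squares and triangles for replicates 1, 2 and 3. The replication and mitotic medians separate AZD and Ento+AZD from DMSO and Ento, while the interferon medians range from 4.86 to 5.85 within the DMSO group alone; the vertical axes differ between panels and do not start at 0.

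For the interferon genes the promoter letters shown are GAAANNGAA, the core of the interferon-stimulated response element, on either strand. They stood in the windows of 28 of 37 matched genes of the list (75.7%), 10 of 60 matched genes called lower (16.7%) and 9.86% of all genes with a window. UBE2L6 had no match in its windows. TRIM14, an adaptor of antiviral signalling that was called lower (-1.0, adjusted p = 0.0295), was added after its value was seen.

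IFIH1, chr2:162318682-162318908, minus strand: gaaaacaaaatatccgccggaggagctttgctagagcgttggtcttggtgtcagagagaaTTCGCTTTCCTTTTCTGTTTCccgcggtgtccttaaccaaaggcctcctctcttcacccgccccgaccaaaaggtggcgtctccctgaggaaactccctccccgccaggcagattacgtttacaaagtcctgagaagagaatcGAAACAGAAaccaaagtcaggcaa
IFITM1, chr11:313940-314054, plus strand: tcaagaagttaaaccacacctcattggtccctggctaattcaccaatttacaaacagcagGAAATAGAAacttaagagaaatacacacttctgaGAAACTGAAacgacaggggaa
TRIM14, chr9:98119224-98119307, minus strand: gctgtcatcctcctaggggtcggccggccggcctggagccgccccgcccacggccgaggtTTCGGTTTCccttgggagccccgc

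The IFIH1 stretch held 4 matches, of which 3 ran into each other, the IFITM1 stretch held 2 and the TRIM14 stretch 1. The last 4 capitals of the first run in IFIH1 and the 4 letters after them spell the E2F word TTTCCCGC, which thus overlaps the interferon-type match.

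IL7R, CD80, TCL1A and MZB1 were each called lower under AZD, and no list joins the 4. IL7R, the receptor chain for interleukin 7 and a FOXO target, measured 4.59, 6.22 and 6.27 under AZD and 7.88, 7.80 and 7.73 under Ento. AZD replicate 1 was far below its companions, and the groups did not overlap. The difference was -2.11 ± 0.34 (adjusted p = 0.0295). CD80, a ligand of CD28 on activated B cells that was singled out after its values were seen, measured 5.26, 5.83 and 5.46 under AZD and 7.24, 7.61 and 6.79 under Ento (-1.70, adjusted p = 0.0223). TCL1A, an AKT coactivator of germinal centre and Burkitt cells, differed by -1.12 ± 0.16 (adjusted p = 0.0223) and was the called gene among 8 germinal centre and Burkitt markers, beside 0.328% of all rows. Of these 8 markers 6 were below 0, and their median was -0.17. MZB1, a chaperone of antibody-secreting B cells, differed by -1.08 ± 0.17 (adjusted p = 0.0295).

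Of 32 measured genes of the ATF4 stress response and cystine transport, 2 were called lower, beside 0.328% of all rows. They were the folate enzyme ALDH1L2 and the lipoprotein receptor VLDLR (-1.32 ± 0.19, adjusted p = 0.0234). In the list 26 genes were below 0 against 59% of all rows, 22 had AZD arrays wholly below the Ento arrays against 15.2%, and the median was -0.48. GPT2, a mitochondrial alanine transaminase, passed the adjusted p alone (-0.85, adjusted p = 0.0308). The cystine transporter SLC7A11 differed by -0.56 (adjusted p = 0.182) and its groups overlapped. DDIT3 and SESN2, both stress-induced ATF4 targets, differed by 0.07 and 0.11, and their groups overlapped.

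The genes that were higher under AZD were few. UCP2, a mitochondrial carrier, measured 10.89, 10.55 and 10.63 under AZD and 9.49, 9.67 and 9.61 under Ento, a difference of 1.10 ± 0.15 (adjusted p = 0.0223). LAPTM5, a lysosomal protein that lowers surface B-cell receptor, measured 11.21, 10.59 and 10.83 under AZD and 9.70, 9.65 and 9.92 under Ento, a difference of 1.12 ± 0.18 (adjusted p = 0.030). PIK3R3, a regulatory subunit of PI3K, measured 8.12, 7.84 and 8.18 under AZD and 6.69, 6.47 and 7.38 under Ento (1.2 ± 0.19, adjusted p = 0.0295), and TP53INP1, a p53-induced protein of autophagy, differed by 1.16 ± 0.21 (adjusted p = 0.0394).

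No AZD array overlapped with an Ento array in these 4 genes. TXNIP, the thioredoxin-binding alpha-arrestin that limits glucose uptake, had the smallest limma p among genes higher under AZD but was not called. It measured 10.39, 10.25 and 10.21 under AZD and 9.17, 9.38 and 9.33 under Ento. Its difference of 0.99 ± 0.13 (adjusted p = 0.0223) fell just short of the fold minimum. The other rows with the smallest p in this direction were HLA-DOB (0.89, adjusted p = 0.0295), NAPSB (0.79, 0.0383), HLA-DQB1 (0.71, 0.0361) and MXD4. HLA-DOB and HLA-DQB1 belong to a list of 15 MHC class II genes in which none was called, 13 were above 0, 8 had AZD arrays wholly above the Ento arrays against 5.2% of all rows, and the median was 0.26.

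None of 8 B-cell identity markers was called. CD79A, a chain of the B-cell receptor, lay between 11.21 and 11.81 in the 6 arrays compared, while BANK1, a B-cell scaffold protein, lay between 2.99 and 3.77. MS4A1, which encodes CD20, measured 7.85, 7.96 and 7.68 under AZD and 6.72, 6.22 and 6.96 under Ento (1.2, adjusted p = 0.069). None of 6 T-cell and 6 myeloid markers was called. CD3D, a chain of the T-cell receptor complex, lay between 2.98 and 3.69 and lysozyme (LYZ) between 2.09 and 2.96, below the array medians of 5.01 to 5.09, and CD14, a monocyte receptor, lay between 4.85 and 5.48.

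The DMSO arrays were used to see which agent stood away from the untreated state, as a description only, since these differences share arrays with the contrast that chose the genes. Of the 83 genes called lower under AZD, the DMSO mean was nearer to the Ento mean in 79 and nearer to the AZD mean in 4. The median DMSO level was 1.04 above AZD and 0.17 below Ento, and in 16 genes it was above both. All 4 genes called higher had a DMSO mean nearer to Ento. LCK (AZD minus DMSO -1.29, Ento minus DMSO -0.16), MYB (-1.28 and -0.03) and ORC1 (-1.06 and 0.03) are examples of a DMSO mean near that of Ento. The DMSO mean lay between the agents in 67 of the 83 genes. In IFIH1 (-1.50 and 0.87), UBE2L6 (-1.02 and 0.65), IFITM1 (-0.64 and 0.57) and PALM2AKAP2 (-0.51 and 0.61) it lay below the Ento mean by 0.57 to 0.87. The median over the interferon list was -0.16 for AZD minus DMSO and 0.38 for Ento minus DMSO, and that over the replication list was -0.68 and 0.03.

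SLC30A4, a zinc exporter, overlapped between the agents but stood apart from the control under both. It measured 6.91, 6.47 and 7.05 under AZD and 6.91, 6.71 and 6.95 under Ento, a difference of -0.05 ± 0.16 (adjusted p = 0.937). Its DMSO arrays read 5.89, 5.48 and 6.16, below every array of both agents, and its Ento+AZD arrays read 7.53, 6.91 and 8.04.

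The same genes were then read as Ento+AZD minus DMSO, a difference between the other 6 DG-75 arrays. Both differences came from 1 fit of 12 arrays and shared its residual spread and replicate term, so a gene chosen in the first for a small spread carried that spread into the second test. Over all rows 181 were called lower (0.708%) and 32 higher (0.125%), and the higher ones were 15% of the calls, 32.9% with quantile normalization and 34.5% with array medians subtracted. Of the 83 genes called lower under AZD against Ento, 76 were below 0 in these other arrays (61.4% of all rows were), 32 were called lower and none higher, and the median was -0.96 against -0.07 for all rows. A fit of the DMSO and Ento+AZD arrays alone called 34 of the 83 lower (0.915% of all rows). That fit without the replicate number called 28 (0.63%). The spread of those 6 arrays had also entered the fit that chose the 83. These counts are therefore not independent of that choice. Of the 4 genes called higher, all were above 0 and LAPTM5 (1.03) and TP53INP1 (1.44) were called. HVCN1 differed by -1.32 (adjusted p = 0.0101), LCK by -1.77 (0.00698), MYB by -1.52 (0.0148) and IL7R by -1.93 (0.0215).

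The 7 genes with values above 0 included the 3 called interferon genes. IFIH1 differed by 0.03 (adjusted p = 0.983), UBE2L6 by 0.03 (0.976) and IFITM1 by 0.21 (0.683), and none of these values passed the test. IFNG-AS1 (0.22), PALM2AKAP2 (0.24) and PLAC8 (0.02) belonged to the same 7. The replication list had 13 genes called lower here with a median of -0.80, and the mitotic list 15 with a median of -0.89, beside 0.708% of all rows called lower and a median of -0.07. Leaving out DMSO replicate 1 or Ento+AZD replicate 1 ended all 213 limma calls, with 2641 and 2857 rows at an unadjusted p under 0.05, and the count was 82 without DMSO replicate 2, 47 without DMSO replicate 3 and 69 without Ento+AZD replicate 2, where 44.9% of the calls were higher.

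**Figure D4:**
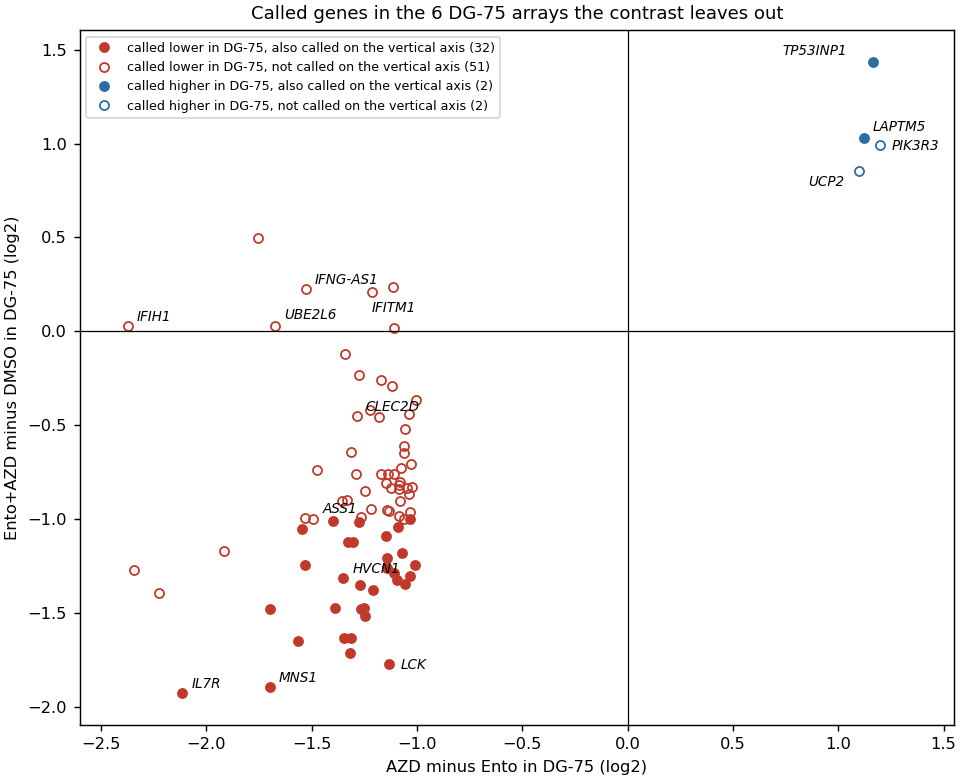
Each of the 87 genes called for AZD minus Ento in DG-75 (horizontal axis, log2) against Ento+AZD minus DMSO in the other 6 DG-75 arrays (vertical axis, log2), with filled points where the second difference was also called. Of the 83 genes called lower, 76 lie below 0 on the vertical axis, and the interferon genes IFIH1, UBE2L6 and IFITM1 lie at or just above 0.

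SU-DHL-4 gave the same contrast in arrays of its own, which were normalized together with those of DG-75, carry the same replicate numbers and were fitted separately. AZD minus Ento called 92 rows lower (0.36%) and 5 higher (0.0196%) in that line. Of the 83 genes called lower in DG-75, 63 were below 0 in SU-DHL-4 (53.3% of all rows were), the median was -0.36, and 10 were called lower, which is 12% of the DG-75 genes and 10.9% of the SU-DHL-4 rows. They included CLEC2D (-1.24), CHRNA6 (-1.78), RGCC (-1.37), TCL1A (-1.05), SLC6A16 (-1.28), SLC2A5 (-1.18), CILK1 (-1.17), IFNG-AS1 (-1.11) and KIAA0040 (-1.01). None of the 4 genes called higher in DG-75 was called in SU-DHL-4. Across 25161 genes, which are not independent of one another, Pearson's r between the lines was 0.23.

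None of the 52 replication genes was called in SU-DHL-4, and their median was -0.34. Their median level was 7.98, 7.04 and 8.25 in the Ento arrays of SU-DHL-4 and 7.24, 7.28 and 7.84 in its AZD arrays, so Ento replicate 2 stood below the other Ento arrays and below every AZD array. The 97 calls in SU-DHL-4 became 108 without that array, 149 without AZD replicate 2, 59 without AZD replicate 1, 44 without AZD replicate 3, 39 without Ento replicate 1 and 31 without Ento replicate 3.

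The test of the difference between the lines called 32 rows (0.125%), 20 with a higher and 12 with a lower value in DG-75. HVCN1 differed by -1.35 in DG-75 and by 0.54 in SU-DHL-4, and the difference of the differences was -1.89 ± 0.29 (adjusted p = 0.0115). CYP26A1, which degrades retinoic acid, differed by -2.22 in DG-75 and 0.39 in SU-DHL-4 (adjusted p of the difference 0.0172). FOXP2, a forkhead transcription factor, differed by -1.25 and 0.18 (0.022), and TDRD7, a Tudor domain protein, by -1.03 and 0.75 (0.0145). In SU-DHL-4 the mean levels under AZD and Ento were 2.51 and 2.12 for CYP26A1 and 2.94 and 2.19 for TDRD7. These lay far below the medians of those arrays, 4.89 to 5.03, so both SU-DHL-4 differences rest on weak signals.

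In the other direction, HLA-DOB differed by 0.89 in DG-75 and -0.70 in SU-DHL-4 (adjusted p of the difference 0.00156). TMPRSS15, a serine protease, differed by -0.28 and -2.41 (0.000749), and LPP, a focal adhesion protein, by -0.18 and -1.87 (0.00156). TMPRSS15 was near the low end of the table in DG-75, at 1.60 to 2.30 in the 6 arrays compared. The count of 32 became 6 without DG-75 Ento replicate 1 and 68 without DG-75 Ento replicate 3. A fit of the 12 arrays compared called 0 rows by limma, with 1714 rows at an unadjusted p under 0.05. The count was 13 without the replicate number in the main fit. The balance turned without single arrays, to 22 higher and 46 lower without DG-75 Ento replicate 3 and to 12 higher and 17 lower without DG-75 AZD replicate 2. With quantile normalization 75% of the calls were higher in DG-75 in place of 62.5%.

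**Figure D5:**
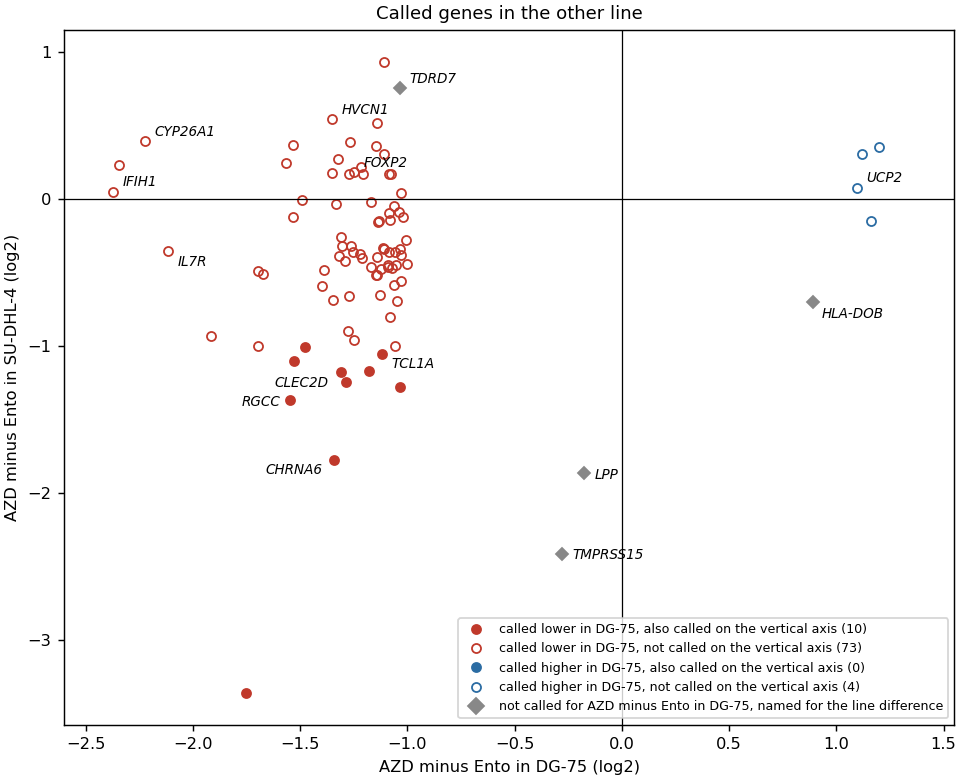
AZD minus Ento in DG-75 (horizontal axis, log2) against the same contrast in SU-DHL-4 (vertical axis, log2) for the 87 genes called in DG-75 and for 4 genes named for the difference between lines, with filled points where SU-DHL-4 was also called. Of the 83 genes called lower in DG-75, 63 lie below 0 in SU-DHL-4 and 10 were called there, while HVCN1, CYP26A1 and FOXP2 lie above 0.

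Several genes that the study singles out, a choice made on samples of these lines and so not independent of them, were not called between the agents in DG-75. COBLL1 differed by -1.64 ± 0.43 (adjusted p = 0.107), RASSF6 by -1.14 ± 0.26 (0.0712), RTKN2 by -1.06 ± 0.24 (0.0705), LRRCC1, a centrosome protein, by -1.40 ± 0.37 (0.109) and the chromatin assembly factor CHAF1B by -0.90 ± 0.18 (0.0577). BACH2, a repressor of plasma cell differentiation, differed by -0.27 ± 0.20 (0.611). In SU-DHL-4 the same contrast gave -3.56 for COBLL1 (0.000833), -3.54 for RASSF6 (0.000838) and -1.56 for BACH2 (0.000833), all called. The test of the difference between the lines called none of the 3 (adjusted p = 0.317, 0.0591 and 0.051, in that order).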

How the data were processed

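RNA of 2 B-cell lymphoma lines was measured on Clariom D human arrays after 72 h of exposure, in 8 groups of 3. Per the methods and the labels, the authors normalized the arrays with RMA and fitted limma; for the arrays, versions and genome build are not given in the sources used here. The deposited table holds log2 expression values by gene symbol, and no array intensities were used. RMA sets the probes of all arrays to 1 distribution, so a shift shared by most genes would be reduced.

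Groups came from the labels. Levels were fitted with limma 3.58.1 in R 4.3.3, by line over its 12 arrays (24 for the difference between lines), with treatment groups and the replicate number as batch term, since the methods name a batch; p-values were Benjamini-Hochberg adjusted over 25575 rows. Calls needed an adjusted p under 0.05 and a difference over 1. No array was dropped or imputed, and no 2 arrays held identical values. A symbol with several rows (315 of 25161) was represented by its row with the highest mean.

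Named genes were up to 12 called genes per direction by adjusted p with all 3 same-numbered differences of 1 sign, the 8 smallest p of a direction with fewer than 5 calls, called list members, 17 fixed genes and up to 4 per direction for the line difference. Some genes that the rule selects are not reported here. The members, lists and tests were chosen with earlier results of these data known. Promoter windows came from RefSeq (GRCh38.p14). The fit was tested on simulated data. The number of arrays limits the precision.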

Additional observations from a re-analysis of the deposited data

Results flagged for a closer look

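The difference between AZD and Ento itself was called as different between DG-75 and SU-DHL-4 in 0.125% of all rows, by limma's test of that difference with Benjamini-Hochberg adjustment. The 10 genes given here were among them, and 7 of the 10 were named for that call (HVCN1, FOXP2, CYP26A1, TDRD7, HLA-DOB, TMPRSS15 and LPP), so their number is no result. It was lower in DG-75 for HVCN1 (-1.89, adjusted p = 0.0115), FOXP2 (-1.43, adjusted p = 0.022), CYP26A1 (-2.62, adjusted p = 0.0172) and TDRD7 (-1.79, adjusted p = 0.0145). It was higher in DG-75 for HLA-DOB (1.59, adjusted p = 0.00156), TMPRSS15 (2.13, adjusted p = 0.000749), LPP (1.69, adjusted p = 0.00156), HLA-DQB1 (1.05, adjusted p = 0.0238), TP53INP1 (1.31, adjusted p = 0.0403) and UCP2 (1.02, adjusted p = 0.0403). HVCN1, CYP26A1, FOXP2, UCP2 and TP53INP1 were called in DG-75 alone, TMPRSS15 and LPP in SU-DHL-4 alone, and HLA-DOB, HLA-DQB1 and TDRD7 in neither line. Signals were weak for CYP26A1 and TDRD7 in SU-DHL-4 and for TMPRSS15 in DG-75.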

How the results depend on the processing

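The 88 calls for AZD minus Ento in DG-75 became 0 in a fit of the 6 arrays compared (3290 rows at an unadjusted p under 0.05 by limma) and 32 in that fit without the replicate number, 155 in 1 fit of all 24 arrays, 49 with quantile normalization, 48 with array medians subtracted, 170 with a robust prior variance that follows the level, 144 with no fold minimum and 2 when tested against a 1.2-fold change; without arrays or replicate numbers they ranged from 0 to 310. For Ento+AZD minus DMSO the 213 calls became 611 with no fold minimum, 14 against a 1.2-fold change and 0 to 272 without arrays. In SU-DHL-4 the 97 became 8 in a fit of the 6 arrays compared, 23 in that fit without the replicate number, 51 against a 1.2-fold change and 5 to 149 without arrays. For the difference between lines the 32 became 0 in a fit of the 12 arrays compared (1714 rows at an unadjusted p under 0.05) and 7 in that fit without the replicate number, 52 with quantile normalization, 69 with the robust prior, 12 against a 1.2-fold change and 0 to 68 without arrays. The cause of these shifts was not tested.

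The replicate number was a block in all main fits. Same-numbered AZD and Ento arrays of DG-75 deviated from their group means with correlations of -0.26, 0.22 and -0.01. Those values cover the AZD and Ento arrays only and cannot show whether same-numbered arrays shared a batch. Without the replicate block the counts were 107 in DG-75 (78 of the 88 shared), 208 for Ento+AZD minus DMSO, 65 in SU-DHL-4 and 13 for the difference between lines.

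For 53 named genes, 1372 values were recomputed: 978 kept direction and side of the threshold, 358 lost the call and 28 gained one. The other 8 changed sign, all in genes that were not called: BRD3 to -0.074 without AZD replicate 3 and -0.056 without replicate 3 (leaving out arrays gave -0.074 to 0.233), SLC30A4 to 0.125 with quantile normalization, 0.097 without Ento replicate 2 and 0.052 without replicate 2 (-0.184 to 0.097), and SYK to -0.043 without Ento replicate 3, -0.078 without AZD replicate 3 and -0.107 without replicate 3 (-0.107 to 0.165).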
